A study of Gallus gallus with 28 samples.

Results

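ATF4, EIF4EBP1 and HSP90AA1 were followed in chicken (Gallus gallus) liver as 3 genes of the cell's stress response on a cDNA array of fat and lean line birds. They were found by gene symbol in the probe annotation, which placed them at 9 of the 576 printed clone positions, or 27 of the 1728 spots. ATF4 had 5 positions from 2 cDNAs, EIF4EBP1 had 2 positions from 2 cDNAs, and HSP90AA1 had 2 positions from 2 cDNAs. Of these positions, 8 had values in every pool and were among the 297 clones tested. The second HSP90AA1 position (block 11, column 12) had no value on any of the 28 arrays, so HSP90AA1 rests on 1 cDNA.

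The samples were 10 pools of liver RNA, 5 of the fat line (pools 6 to 10) and 5 of the lean line (pools 1 to 5), each made from 4 chickens. The labels used here do not state the age, sex or feeding of the birds. Each pool was labelled with Cy5 and hybridised against a Cy3 reference made from the RNA of all 10 pools, on 3 arrays per pool, or 2 for pools 8 and 3. Since the arrays of a pool share their RNA, they were averaged for the comparisons between lines, where n is 5 pools per line.

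ATF4 is a leucine zipper transcription factor of the integrated stress response. When kinases that sense amino acid shortage or misfolded protein phosphorylate the initiation factor eIF2, most translation slows while the ATF4 message is translated more, so the protein can rise with little change in mRNA. ATF4 then switches on genes of amino acid synthesis and transport. EIF4EBP1 binds the cap-binding protein eIF4E and blocks initiation until the TOR kinase, which responds to insulin and amino acids, phosphorylates it, and in mouse its gene is a target of ATF4. HSP90AA1 is the stress-inducible cytosolic HSP90 chaperone, a gene controlled by heat shock factors. Only mRNA was measured, so translation and phosphorylation lie outside these data.

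Values are log2 ratios of the liver sample over the common reference. This direction is likely, from the channel order in the labels, and if the deposited ratio ran the other way the signs of the pool values and of the fat minus lean differences would turn, and those of the correlations would not. A value of 0 means the level of the reference, and levels of different genes cannot be set against each other. An array gave values for 450 to 741 of the 1728 spots. The lowest correlation between any pair of arrays was r = -0.312 over 426 spots, between an array of fat pool 6 and one of lean pool 3. In those same arrays Spearman's rho was -0.0734. Without pool 3 the differences reported below were -0.12 for ATF4, 0.09 for EIF4EBP1 and -0.27 for HSP90AA1. Without pool 6 they were -0.03, 0.13 and -0.27 in the same order. All 572 spot values of the 9 positions lay between -1.75 and 1.76, while the whole table ran from -7.06 to 14.01. Of the hepatocyte markers listed for the tissue check, 5 of 9 had tested values (APOA1, APOB, FABP1, AHSG and GC). Markers of erythrocytes, leukocytes, stroma, adipocytes and bile duct cells had 0 tested genes, so the part of other cells was not tested. In bulk RNA, fewer cells of a type and less RNA per cell cannot be told apart.

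The first comparison asked whether the livers of the fat line differed from those of the lean line in these mRNAs. No position passed the limma test after Benjamini-Hochberg adjustment over the 297 clones (0 of 8), and 0.0% of all tested clones passed. At an unadjusted p under 0.05 there were also 0 of 8, where 9.43% of all tested clones were called. Under the alternatives 8 of 176 position values had an unadjusted limma p under 0.05, and none passed adjustment. The share of all tested clones under the same alternatives was not counted, so these 8 have no background to be set against. For EIF4EBP1 in block 14 the unadjusted limma p was 0.0303 without pool 7, 0.0446 without pool 1, 0.0292 with arrays as observations and 0.0267 with array number as a replicate block. For HSP90AA1 it was 0.0474 and 0.0261 in the last 2 of these settings. Both settings take single arrays as observations, although the arrays of a pool share their RNA. The first allows for the correlation within pools, but with 1 value for all clones (0.173). Where a position has a higher correlation, its p-value there overstates the replication, and the correlation of single positions was not estimated. The replicate block fit ignores the pools, so its p-values overstate the replication. With pools as the unit the unadjusted limma p was 0.0676 for EIF4EBP1 in block 14 and 0.110 for HSP90AA1. For ATF4 in block 16 the unadjusted limma p was 0.0431 without pool 3 and 0.0409 with second arrays only. At the EIF4EBP1 position pool 7 was the lowest fat pool and pool 1 the highest lean pool. At the ATF4 position pool 3 was the lowest lean pool. Leaving out such a pool widens the difference by itself. Some other pools left out raised the unadjusted limma p for EIF4EBP1, to 0.156 without pool 8 and 0.127 without pool 3. Without pool 6 it fell to 0.0532. For ATF4 it rose to 0.394 without pool 8, and fell to 0.0589 without pool 10 and 0.170 without pool 9. HSP90AA1 and 1 of the EIF4EBP1 positions came closest, and the ATF4 positions scattered on either side of 0. The lines overlapped at all 8 positions, while 2.59% of the clones measured in all 10 pools showed no overlap.

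The first ATF4 cDNA stood in block 13, at columns 2 and 7. At column 2 the log2 ratio was -0.49, 0.27, 0.47, 0.08 and 0.56 in fat pools 6 to 10, against 0.10, -0.08, 0.37, 0.56 and 0.30 in lean pools 1 to 5. The lowest fat pool lay below every lean pool and the highest matched the highest lean pool, so the fat line was the wider. At column 7 the values were -0.205, -0.09, 0.06, 0.02 and 0.87 in fat pools 6 to 10, against 0.18, -0.17, 0.09, 0.325 and 0.02 in lean pools 1 to 5. Pool 10 was the highest at column 2 and at column 7, and pool 6 the lowest. At both columns pool 10 had values on 2 of its 3 arrays. The difference between the lines was -0.07 (standard error 0.21) at column 2 and 0.04 (standard error 0.20) at column 7, both smaller than their errors.

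The second ATF4 cDNA stood at 3 positions. In block 14, column 5, the values were -0.22, -0.22, -0.14, -0.21 and 0.23 in fat pools 6 to 10, against -0.00111, -0.23, -0.10, 0.35 and 0.29 in lean pools 1 to 5. Of the fat pools 4 lay close together below 0 and pool 10, with values on 2 of its 3 arrays, stood apart. In block 16, column 12, the values were -0.45, -0.02, -0.59, 0.17 and 0.57 in fat pools 6 to 10, against 0.63, 0.38, -0.40, 0.34 and 0.53 in lean pools 1 to 5. The lean mean exceeded 4 of 5 fat pools there, and the lean pools were all above 0 except pool 3. The differences were -0.17 (standard error 0.15) and -0.36 (standard error 0.26), with limma adjusted p = 0.695 and 0.656. The block 14 difference was -0.10 without pool 4 and -0.30 with only the second array of each pool. The block 16 difference was -0.53 without pool 3, -0.23 without pool 8, -0.22 with medians over arrays, and -0.85 with only second arrays. First arrays alone gave 0.12, with no value for fat pool 9.

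The remaining ATF4 position, block 14, column 8, was the least filled, with 50 of 84 spots, against 71 to 77 at the other ATF4 positions. Its values were 0.17, -0.10, 0.74, 0.36 and 0.13 in fat pools 6 to 10, against 0.04, 0.23, 0.83, 0.11 and 0.06 in lean pools 1 to 5. Pools 10 and 2 rested on 1 spot each. Here pools 8 and 3 were the highest of their lines, although in block 16 the same cDNA was lowest in those very pools. The difference was 0.01 (standard error 0.20), and its sign turned in 10 of 22 other settings. Whether this position holds the annotated cDNA was not tested. Without it, an alternative chosen after seeing the data, the ATF4 gene mean described next differed by -0.14 between the lines (limma adjusted p = 0.785).

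Averaged over the 5 positions, ATF4 was 0.08 ± 0.26 in the fat pools and 0.19 ± 0.11 in the lean pools (SD, n = 5 each). The difference of -0.11 had a standard error of 0.15 and did not pass (limma adjusted p = 0.785 over 110 genes, exact permutation p = 0.421). Its 95% interval, as a ratio of fat over lean, ran from 0.741 to 1.16. The lean mean exceeded 4 of 5 fat pools, while pool 10 stood above every lean pool. The mean of the first cDNA differed by -0.01 (exact permutation p = 0.960) and that of the second by -0.18 (exact permutation p = 0.111). The ATF4 difference was -0.03 without pool 6 and -0.21 without pool 10, and it turned to 0.17 when only the first array of each pool was used. On its first array fat pool 10 was at 0.91, with no value at either ATF4 position of block 14.

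**Figure D1:**
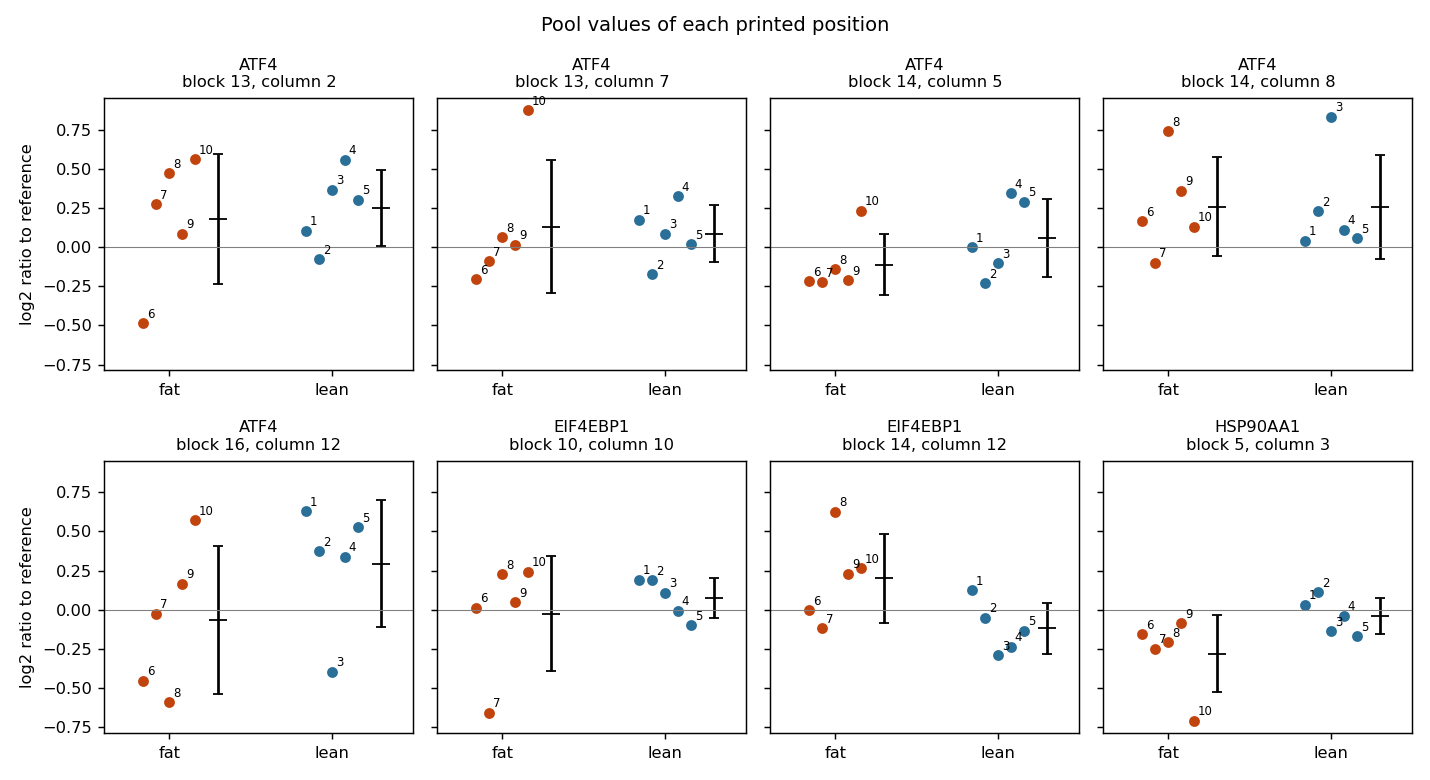
Log2 ratio to the reference (vertical axis) of each pool at the 8 measured positions, with fat pools in red on the left and lean pools in blue on the right, numbers giving the pool and black bars the mean and SD of 5 pools. The lines overlap in every panel, fat pool 10 is the highest fat pool at every ATF4 position except block 14, column 8, and the lowest point for HSP90AA1 (-0.71).

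EIF4EBP1 was represented by 2 different cDNAs, and they gave differences of opposite sign. In block 10, column 10, the values were 0.01, -0.66, 0.23, 0.05 and 0.24 in fat pools 6 to 10, against 0.19, 0.19, 0.11, -0.00444 and -0.10 in lean pools 1 to 5. Fat pools 8 and 10 lay above all lean pools, while pool 7 lay far below them. In pool 7 the arrays gave -0.79, -1.22 and 0.04, from 3, 1 and 1 spots, so the low value came from 2 of its 3 arrays. Its difference was -0.10 (standard error 0.18), and 0.06 without pool 7.

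The other EIF4EBP1 cDNA, in block 14, column 12, had values of -0.0025, -0.12, 0.625, 0.23 and 0.27 in fat pools 6 to 10, against 0.12, -0.05, -0.29, -0.24 and -0.13 in lean pools 1 to 5. All 5 fat pools lay above the lean mean, and 3 of 5 above the highest lean pool. The difference of 0.32 (standard error 0.16, 95% interval -0.03 to 0.66) did not pass (limma adjusted p = 0.530, exact permutation p = 0.0556). It was 0.21 without pool 8 and 0.49 with only first arrays, where lean pool 3 had no value. In the main value that pool, the lowest of the lean line at -0.29, rested on 1 of its 2 arrays. Averaged over both cDNAs, EIF4EBP1 was 0.09 ± 0.31 in the fat pools and -0.02 ± 0.13 in the lean pools (SD, n = 5 each). This difference of 0.11 (standard error 0.16, limma adjusted p = 0.800) ran from 0.842 to 1.38 as the 95% interval of the ratio. It was 0.02 without pool 8, 0.23 without pool 7 and 0.03 with only the second array of each pool.

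HSP90AA1, in block 5, column 3, was the most fully measured of the positions, with 78 of 84 spots. Its values were -0.16, -0.25, -0.21, -0.09 and -0.71 in fat pools 6 to 10, against 0.03, 0.11, -0.14, -0.04 and -0.17 in lean pools 1 to 5. The lean mean lay above all 5 fat pools, and 3 of 5 fell short of the lowest lean pool. The fat pools averaged -0.28 ± 0.25 and the lean pools -0.04 ± 0.12 (SD, n = 5 each). The difference of -0.24 (standard error 0.14) did not pass in limma (adjusted p = 0.631, unadjusted p = 0.110). The two-sided exact permutation of the pools gave p = 0.0476 before any adjustment, the smallest of the 8 positions. The smallest p this design allows is 0.00794, and the share of all tested clones under 0.05 by this permutation was not counted. As a ratio the 95% interval ran from 0.685 to 1.05. The arrays of pool 10 gave -0.83, -0.91 and -0.38, from 3, 3 and 1 spots. The last was within the range of other pools, where single arrays gave -0.38 (lean pool 2), -0.41 (lean pool 5) and -0.455 (fat pool 7). Without pool 10 the difference was -0.13, and with only the second array of each pool it was -0.02.

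**Figure D2:**
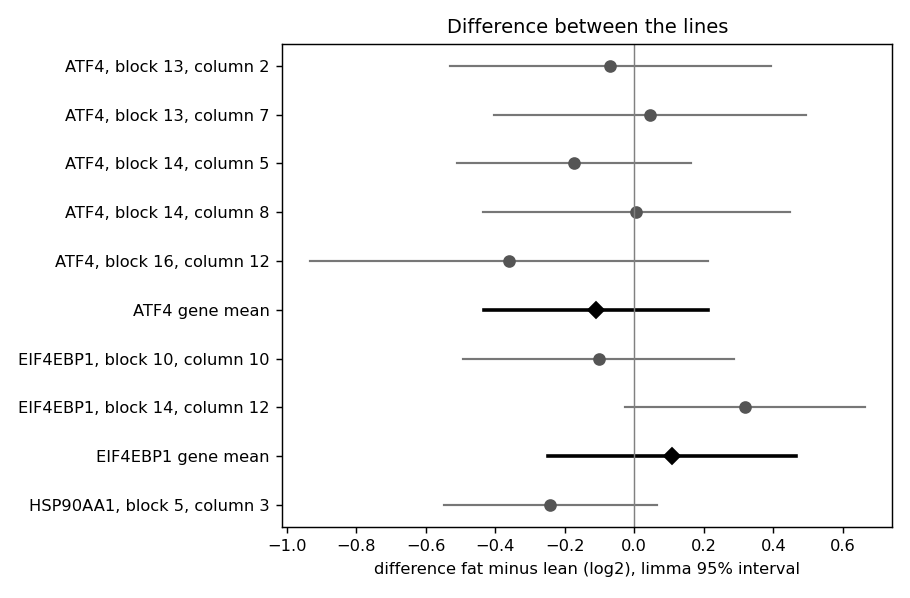
Difference fat minus lean in log2 ratio (horizontal axis) with its limma 95% interval, for each position (grey) and for the gene means of ATF4 and EIF4EBP1 (black). Every interval crosses 0, from ATF4 in block 16 at -0.36 to EIF4EBP1 in block 14 at 0.32.

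The second comparison set the pools of a line against each other, with the arrays as the measure of error. In the fat line 6 of the 7 positions that could be tested had an unadjusted p under 0.05 in the limma F test across pools, with 22.8% of all 202 clones so called. None of the 7 passed adjustment (limma adjusted p from 0.163 to 0.405), and 0.0% of all clones did. In the lean line the unadjusted count was 0 of 6, with 15.9% of 189 clones so called, and adjustment left 0 of 6, where 0.529% of clones passed. A call in one line and not in the other does not show that the lines differ in spread, and that difference was not tested. The SD between fat pools exceeded that between lean pools at 6 of 8 positions, against 132 of the 297 tested clones (44.4%).

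The same test on gene means, chosen after the values were seen, gave unadjusted p = 0.00643 for EIF4EBP1, 0.0213 for ATF4 and 0.0362 for HSP90AA1 among the fat pools. In the limma F test over 66 genes their adjusted p-values lay between 0.158 and 0.164, with 28.8% of genes under an unadjusted p of 0.05 and 1.52% past adjustment. Among lean pools the unadjusted limma p-values of the 3 genes lay between 0.467 and 0.701, with 21.0% of 62 genes called, and 4.84% of genes passed adjustment. The highest ATF4 gene mean was that of fat pool 10 (0.47) and the lowest that of fat pool 6 (-0.24), with all lean pools between them. None of the 9 steps between neighbouring pools in the ATF4 order exceeded the SD between arrays of a pool (0.212), and the largest was 0.206. This SD is that of single arrays, while a pool value averages 2 or 3, so the error of a pool value is smaller than the SD. Each array was averaged over the positions that had a value on it. For ATF4 and EIF4EBP1 the SD and the F tests on gene means therefore also hold changes in which positions had values. The SD for ATF4 was largest in fat pool 10 (0.39), where the arrays lacked values at different positions. For EIF4EBP1 the order ran from fat pool 7 (-0.39) to fat pool 8 (0.43), and only the step above pool 7 exceeded the array SD of 0.19. For HSP90AA1 it ran from fat pool 10 (-0.71) to lean pool 2 (0.11), and only the step above pool 10 (0.46) exceeded the array SD of 0.23.

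**Figure D3:**
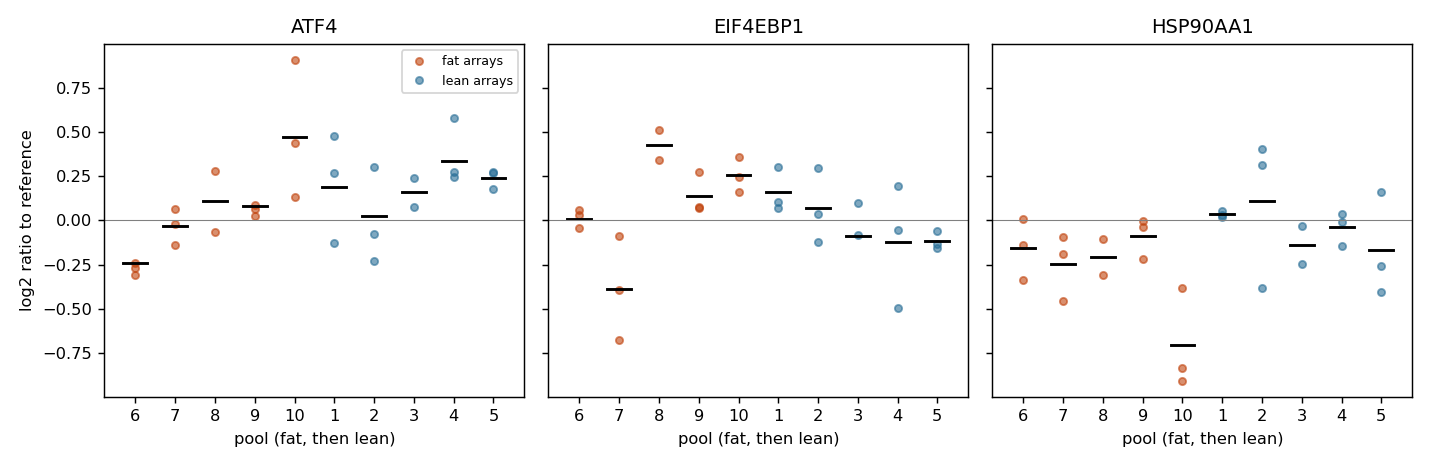
Log2 ratio to the reference (vertical axis) of each array (points, averaged over the positions of a gene) by pool, fat pools in red before lean pools in blue, with the pool value as a black line. Pool values average each position over its arrays first, so a line can lie outside its points where positions lack values. HSP90AA1 in fat pool 10 is at -0.83, -0.91 and -0.38 on its 3 arrays.

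Positions that carry the same gene show how far a pattern over pools can be trusted. For ATF4 the 10 pairs of positions correlated across the 10 pools with a median Pearson r of 0.32, from -0.66 to 0.67. Columns 2 and 7 of block 13 (r = 0.67) and column 5 of block 14 (r = 0.61 and 0.67 with them) moved together, although they carry different cDNAs. Column 8 of block 14 went against the other positions of its own cDNA, with r = -0.29 to column 5 and -0.66 to block 16. Among other genes, 23 pairs of positions with the same cDNA had a median r of 0.52, from -0.56 to 0.97. The 4 ATF4 pairs of one cDNA had a median of 0.14 and ran from -0.66 to 0.67, so their lowest pair lay below the lowest of the other genes. Positions of one gene with different cDNAs had a median r of 0.36 among other genes (30 pairs, from -0.59 to 0.94). The 6 ATF4 pairs of this kind had a median of 0.32, from -0.07 to 0.67, and the EIF4EBP1 positions correlated at r = 0.43. Pairs of clones from different blocks with no annotated gene in common had a median r near 0 (-0.00011 over 25076 pairs). Clones without a gene name were counted among them. All these pairs share arrays and the common reference, so the values are descriptions over 10 pools.

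Arrays of one pool held the same RNA, so movement of positions within a pool does not come from birds. As deviations of arrays from their pool mean, the ATF4 positions had a median r of 0.04, from -0.43 to 0.20. The SD between arrays of a pool was 0.29 to 0.50 at the ATF4 positions, 0.20 and 0.31 at the EIF4EBP1 positions and 0.23 for HSP90AA1, with a median of 0.38 over all tested clones.

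**Figure D4:**
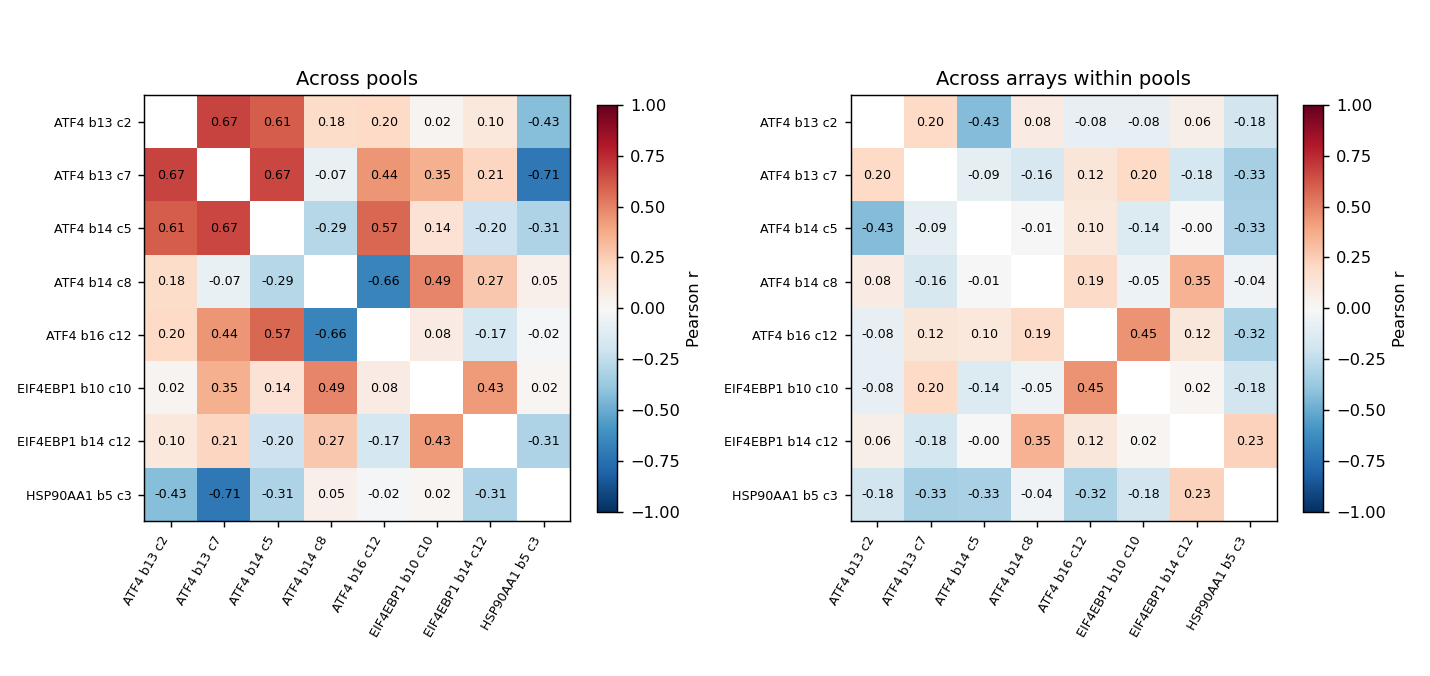
Pearson r between the 8 positions (b for block, c for column, colour from -1 in blue to 1 in red), across the 10 pools on the left and across arrays as deviations from their pool mean on the right. On the left ATF4 in block 13 and in block 14, column 5 form a group at 0.61 to 0.67, while block 14, column 8 runs against block 16 (-0.66).

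The third comparison asked whether EIF4EBP1 followed ATF4 from pool to pool. Over the 10 pools the gene means gave Pearson r = 0.23 (two-sided permutation p = 0.529, adjusted p = 0.603 over the 3 pairs of genes) and Spearman rho = 0.15 (permutation p = 0.684, adjusted p = 0.918). An interval of 95% by Fisher's transformation ran from -0.468 to 0.751, so neither a strong relation nor its absence was shown with 10 pools. Fat pool 10 was high in both genes (0.47 for ATF4 and 0.25 for EIF4EBP1) and fat pool 7 low in both (-0.03 and -0.39). Fat pool 6, lowest for ATF4 at -0.24, was near the reference for EIF4EBP1 (0.01), and lean pool 4, second highest for ATF4 at 0.34, was at -0.12.

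Without pools 6 and 10, the farthest from the ATF4 median, r was 0.04 (permutation p = 0.921). Without pool 10 alone it was 0.03, and without pool 7 alone 0.05. With ATF4 averaged without block 14, column 8, r was 0.09 (permutation p = 0.814). With the line means subtracted r was 0.33 (exact permutation within lines, p = 0.514), and 5 pools are too few for a correlation inside a line. Between single positions r ran from -0.20 to 0.49 over 10 pairs, with 8 of 10 above 0. These pairs reuse 5 ATF4 and 2 EIF4EBP1 positions over the same pools, so they are not separate observations. Among other clones with no annotated gene in common, 12535 of 25076 pairs from different blocks and 948 of 1656 pairs within a block were above 0. Across arrays within pools, which share their RNA, the gene means had r = 0.24 over 28 arrays, close to the value across pools. Between single positions the r across arrays within pools had a median of 0.03, from -0.18 to 0.45.

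**Figure D5:**
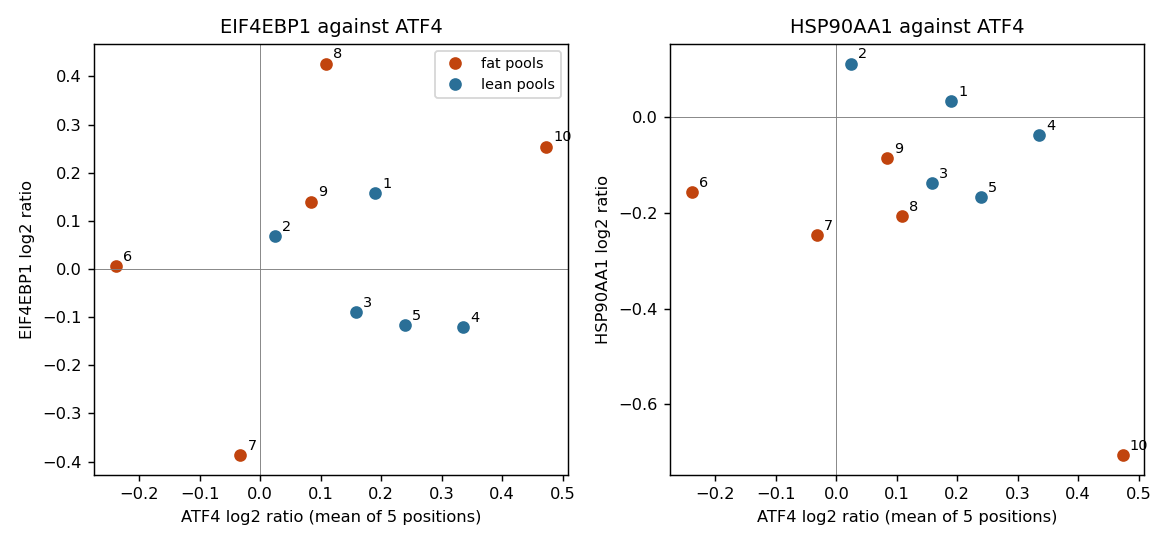
EIF4EBP1 (left) and HSP90AA1 (right) log2 ratios (vertical axes) against the ATF4 log2 ratio (horizontal axis), each point a pool, fat in red and lean in blue. On the left the pools scatter (r = 0.23), and on the right fat pool 10 stands alone at high ATF4 and low HSP90AA1.

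Few other genes of these pathways were measured, and none passed in either direction (0.0% of the 110 genes passed, 60 of them higher and 50 lower in the fat line, median 0.03). From a list of 29 genes of the ATF4 programme, 1 was tested: PSPH, the phosphatase of the last step of serine synthesis. It was 0.32 ± 0.48 in the fat pools and 0.19 ± 0.10 in the lean pools (SD, n = 5 each), a difference of 0.12 (limma adjusted p = 0.829), with r = 0.36 to ATF4 over 10 pools. From 35 genes of chaperones and oxidative stress, 1 was tested: CAT, which breaks down hydrogen peroxide, differed by 0.16 (limma adjusted p = 0.703).

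Of 28 genes of translation and its control by TOR, 4 were tested, of which 1 was higher and 3 were lower in fat livers, with a median of -0.28. RPS6KB1, the ribosomal S6 kinase downstream of TOR, differed by 0.25 (standard error 0.33). EEF1B2, an elongation factor subunit, differed by -0.03, and the small subunit proteins RPS25 and RPS4Y1 by -0.52 and -1.36 (limma adjusted p from 0.253 to 0.949 over the 4). Of 11 genes of insulin and growth factor input to TOR, 4 were tested, of which 3 were higher and 1 was lower in fat livers, with a median of 0.50. The insulin receptor INSR differed by 0.68 as a gene mean over 3 positions, but by 0.215 at the 1 position filled well enough to be tested by itself. The growth factors IGF2 and IGF1 differed by 1.15 and -0.81 with values in 7 pools each, and IGFBP2, which binds them, by 0.32 in 8 pools (limma adjusted p from 0.549 to 0.779 over the 4).

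Likeness of pattern was taken as Pearson r across the 10 pools against 77 other genes with values in every pool. Closest to ATF4 were ERAP1, an aminopeptidase of the endoplasmic reticulum (r = 0.70), ATP5J2, a subunit of ATP synthase (0.61), and GPI, the glucose phosphate isomerase (0.54). Farthest from it were ORM1 (-0.55), SUCLG1 (-0.51) and LCAT (-0.48). Closest to EIF4EBP1 were LSS, the lanosterol synthase of the cholesterol pathway (0.83), FADS2, a fatty acid desaturase (0.66), and ALDOC, an aldolase (0.66), and farthest were LRP1 (-0.69), SREBF2 (-0.66) and PFKL (-0.60). Closest to HSP90AA1 were LOC771069 (0.68), RACK1, a scaffold protein of the ribosome (0.63), and RPS25 (0.61), and farthest were CFI (-0.69), RHOA (-0.64) and CPT2 (-0.63). These are the ends of 77 values over 10 pools and carry no test.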

How the data were processed

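Per the labels' protocols, RNA from livers of 4 birds made up a pool, 500 ng of poly(A)+ RNA was labelled with Cy5, and a reference of all pools with Cy3. Each value the authors deposited is the log2 ratio of 1 spot on 1 array. How they corrected, filtered and normalized the spots is not stated in the labels or the file. The log base was inferred from a highest value of 14.01, above the 11.1 that a natural log ratio of a 16-bit scanner could reach. Array medians lay between -0.06 and 0.07. No array had its dyes swapped.

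Spot IDs were read as block, column and row, and 3 spots a clone were averaged, then the arrays of a pool. The platform annotation gives 1 gene symbol for 618 spots, several for 0 and none for 1110, and the symbols of the 3 genes matched current chicken gene entries by gene ID. No genome build is named, so no coordinates are given, and no sequence was used here. Groups were taken from sample titles. P-values between lines are set against the spread between pools, except in the alternatives that take arrays as observations. There the fit allowed for a correlation of 0.173 within pools for clones, or, with array number as a replicate block, took the arrays as independent. P-values of the F tests across pools are set against the spread between arrays of a pool, which is technical.

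Each clone measured in 3 or more pools per line was tested with limma 3.58.1 in R 4.3.3 (lmFit, eBayes, Benjamini-Hochberg, called under 0.05), 297 clones, and 110 gene means over all positions of a gene. The fit was tested on simulated data with known differences. These were all larger than the main differences at the member positions, so differences of that size were not tested. Exact permutations and correlations (100000 permutations) used numpy 2.4.6 and scipy 1.17.1. F tests across pools took clones measured on 2 or more arrays in each pool. The members, lists and tests were chosen with earlier results of these data known. Named genes are all member positions, all measured list genes, and the 3 genes with the highest and lowest r to each member, leaving out the 3 members. Alternatives were other averages over spots and arrays, spot filters, normalizations, single arrays, arrays as observations, pool filters and each pool left out.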

Additional observations from a re-analysis of the deposited data

Results flagged for a closer look

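In 6 of the 20 groups of 5 pools examined, 1 pool stood apart from the other 4 (Dixon's test at 95%, critical value 0.71), where chance flags about 1 in 20 groups. All 6 were among the 16 groups of single positions (37.5%), while the same test marked 45 of 495 groups over all tested clones (9.09%). The groups overlap, since the gene means hold their positions and positions of a gene share pools. Fat pool 10 accounted for 3 of them. It was high at 0.87 for ATF4 in block 13, column 7, against -0.205 to 0.06 in the other fat pools. It was also high at 0.23 in block 14, column 5, against -0.22 to -0.14. Both ATF4 values rested on 2 of the 3 arrays of that pool. These gave 1.25 and 0.50 in block 13, and 0.24 and 0.22 in block 14. In the same pool HSP90AA1 was low at -0.71, against -0.25 to -0.09. Fat pool 7 was low at -0.66 for EIF4EBP1 in block 10, column 10, against 0.01 to 0.24. Lean pool 3 was flagged in opposite directions for 1 ATF4 cDNA: high at 0.83 in block 14, column 8, against 0.04 to 0.23, and low at -0.40 in block 16, column 12, against 0.34 to 0.63. That pool had 2 arrays, which gave 1.08 and 0.58 at the first of these positions and -1.12 and 0.32 at the second.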

How the results depend on the processing

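No member position passed an adjusted p of 0.05 under any of 22 alternatives, and 0 of 243 alternative values of the differences did. In the main fit 0.0% of all 297 clones and 0.0% of all 110 genes passed, and the share under the alternatives was not counted. The absence of calls is therefore not particular to these genes in the main fit. The sign turned in 20 of the 243. The gene mean of ATF4 turned to 0.17 when only first arrays were used, where block 13, column 2 gave 0.26 and block 16, column 12 gave 0.12. The first arrays of fat pools 9 and 10 lacked values at some ATF4 positions. With at least 2 of 3 spots, block 13, column 2 was at 0.032 and block 14, column 8 at -0.10, and block 14, column 8 was at -0.026 with array medians subtracted, -0.035 with the second array only and -0.042 with array numbers as a replicate block. Block 13, column 7 was at -0.030 with quantile normalization. With single pools left out, block 13, column 2 ran from -0.16 to 0.10, column 7 from -0.14 to 0.13, block 14, column 8 from -0.11 to 0.15 and EIF4EBP1 in block 10 from -0.17 to 0.057. The gene means of ATF4 (-0.21 to -0.03), EIF4EBP1 (0.02 to 0.23) and HSP90AA1 (-0.29 to -0.13) kept their signs. With a replicate block ATF4 was at -0.13, EIF4EBP1 at 0.07 and HSP90AA1 at -0.25. The labels give the array number only as a replicate. Deviations of same-numbered arrays, averaged over the pools of a line, correlated between the lines at 0.06, 0.03 and 0.05. This average would not show a batch shared by only some pools, and such a batch was not tested. The r of EIF4EBP1 with ATF4 turned for ATF4 in block 14, column 5 (-0.20) and block 16 (-0.17) against EIF4EBP1 in block 14, and stayed between 0.20 and 0.22 with each ATF4 cDNA alone or positions weighted by filled spots, settings chosen after seeing the data. The causes of these turns were not tested. The number of arrays and pools limits the precision.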

Other observations

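The Pearson r of HSP90AA1 with ATF4 across pools was negative, turned positive without fat pool 10, and passed no test. Over 10 pools r was -0.43 (permutation p = 0.215, adjusted p = 0.603 over 3 pairs) and Spearman rho was -0.0909. With the line means subtracted r was -0.76 (exact permutation within lines, p = 0.0536, adjusted p = 0.161). Without pools 6 and 10 it was 0.15, and -0.32 with line means subtracted. Without pool 10 alone these were 0.23 and -0.28, and without pool 6 alone -0.57 and -0.80. Across arrays of the same pool, which carry the same RNA, r was -0.50 over 28 arrays. At all 5 ATF4 positions the arrays ran against HSP90AA1 (r from -0.33 to -0.04), but these 5 values share the same HSP90AA1 spots. How often other pairs of clones do so was not counted. The SD between arrays of a pool was largest in fat pool 10 for ATF4 (0.39) and in lean pool 2 for HSP90AA1 (0.43). The r across arrays without these pools was not computed. EIF4EBP1 and HSP90AA1 had r = -0.18 across pools (permutation p = 0.603) and r = -0.00326 across arrays within pools.

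Clones of 1 printing block had a median r across pools of 0.08 over 1656 pairs. For clones of different blocks with no annotated gene in common the median was -0.00011. ATF4 at 2 positions and EIF4EBP1 at 1 shared block 14, with r = -0.20 and 0.27 between them.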
